A study of Mus musculus with 4 samples.

Results

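The subject here is how far the answer of blood progenitor colonies to 4-hydroxytamoxifen (4OHT) differed between MPP2 and ST-HSC cultures. For each gene, the 4OHT minus ethanol difference in ST-HSC colonies was subtracted from that in MPP2 colonies, on log2(normalized count + 0.5). A negative value of this response difference means that the MPP2 colonies went up less, or down more, than the ST-HSC colonies. The gene set held 11114 of the 14323 genes in the table, namely those with a mean of at least 1 normalized count over the 4 libraries and at least 1 in a library of each cell type. Of the others, 2953 had a lower mean, 221 were too low in ST-HSC and 35 too low in MPP2 colonies.

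Short-term haematopoietic stem cells (ST-HSC) and MPP2, a multipotent progenitor class, came from a C57BL/6 model mouse in which 4OHT switches on MLL-ENL. The labels mark 4OHT cultures as expressing MLL-ENL, a leukaemia fusion of the chromatin regulator MLL with ENL, and ethanol cultures as controls. They do not name the promoter, allele or age of the mouse. The 4 groups were ST-HSC with ethanol, ST-HSC with 0.05 µM 4OHT, MPP2 with ethanol and MPP2 with 0.05 µM 4OHT. Each group began from 100 cells, kept 5 to 7 days in 1% methylcellulose plus the cytokines IL-3, GM-CSF, IL-6 and SCF, and gave 1 RNA-seq library. All groups share strain, medium and cytokines, and no group tests 4OHT on cells without the fusion, so the drug and the fusion cannot be told apart.

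The libraries held 12907412 to 14317891 recovered reads, and 1 read was worth 0.0695 to 0.0802 normalized counts. With 1 library per group, a model with cell type, treatment and their interaction has 4 coefficients on 4 libraries, so no value below has a test or a p-value. Intervals in brackets are 95% counting intervals, which leave out the variation between cultures. A gene is called when its response difference reached 2-fold.

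The cell types also differed in donor sex. Transcripts of the Y chromosome, Ddx3y, Uty, Eif2s3y and Kdm5d, were at 234 to 682 reads in the ST-HSC libraries and at 0 in both MPP2 libraries. Xist, the RNA that silences an X chromosome in female cells, had 0 and 5 reads in ST-HSC colonies and 12086 and 7437 in MPP2 colonies, ethanol first. Cell type and donor sex, or donor animal, therefore cannot be told apart in any value below. The rule removed all 5 genes, since each was under 1 in one cell type.

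Cells answer foreign nucleic acid by releasing type I interferons, which bind their receptor and drive a set of antiviral genes. These include the OAS enzymes that sense double-stranded RNA, the IFIT proteins that bind foreign RNA, and ISG15, a ubiquitin-like tag. In the promoters of many such genes lies a repeated GAAA core that interferon regulatory factors bind. In myeloid cultures with IL-3 and SCF, progenitors give rise to neutrophils, macrophages, mast cells and basophils, and the last 2 depend on GATA factors. The libraries are bulk RNA, in which fewer cells of a type and less RNA per cell cannot be told apart.

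These 5 promoter stretches are shown because their genes were among those whose 4OHT response was weaker in MPP2 colonies. They come from RefSeq windows on GRCm38.p6 and are written 5′ to 3′ in the direction of the gene. Capitals mark matches to GAAANNGAA, the core of an interferon response element, on either strand, joined where they overlap. The stretches lie at chr19:34640740-34640853 (plus strand), chr4:156200836-156200936, chr5:120907526-120907585, chr5:120777680-120777774 and chr12:26456523-26456611 (all minus strand), in that order.
Ifit1: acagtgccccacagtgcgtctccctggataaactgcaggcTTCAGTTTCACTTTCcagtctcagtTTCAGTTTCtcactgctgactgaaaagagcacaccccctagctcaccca
Isg15: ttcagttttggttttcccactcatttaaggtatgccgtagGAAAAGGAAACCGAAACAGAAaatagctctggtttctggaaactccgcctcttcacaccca
Oas1a: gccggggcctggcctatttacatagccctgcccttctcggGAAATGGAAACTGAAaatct
Oas3: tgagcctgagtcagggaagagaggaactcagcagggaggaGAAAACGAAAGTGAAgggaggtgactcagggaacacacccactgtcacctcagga
Rsad2: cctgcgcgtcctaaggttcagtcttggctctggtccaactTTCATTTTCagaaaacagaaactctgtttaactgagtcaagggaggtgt

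Windows of 250 bases before and 50 bases after the start of transcription were matched for 8505 of the 11114 genes. The motif stood in 15 of the 24 interferon effector genes with a window (62.5%) and in 8.83% of all 8505 genes. Among genes called lower in MPP2 it stood in 34 of 160 (21.25%), and among those called higher in 5 of 47 (10.6%). The genes called lower include effectors, so the 2 shares overlap. Of those past 2-fold the same way in both cell types it stood in 8 of 13. For those past 2-fold in ST-HSC colonies alone it was 9 of 41, and in MPP2 colonies alone 6 of 50 (12%). Among the 15 effectors with the motif, Eif2ak2 and Ifitm3 had no match in the 250 bases before the start. The same 250 bases of Irf7 and of Oasl2 held no match either.

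Over all 11114 genes the response difference had a median of -0.01, quartiles of -0.22 and 0.19 and an SD of 0.40, and 85.5% of genes were within log2 0.5 of 0. At least 2-fold lower in MPP2 were 238 genes (2.14%), and at least 2-fold higher 71 (0.639%). These shares over all genes stand behind each count of called genes in the lists below. They were larger for weakly read genes, at 7.09% and 2.86% under a mean of 5. Past 4-fold were 24 lower and 5 higher. For 228 of the 238 and 66 of the 71 the counting interval of the ratio of ratios did not include 1. The calls and the intervals rest on the same reads, so these counts add no separate support to the calls. Above 0 were 48.7% of genes. In the single responses, 2.08% of genes were at least 2-fold higher and 0.549% lower in ST-HSC colonies, against 1.34% and 1.29% in MPP2 colonies.

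**Figure D1:**
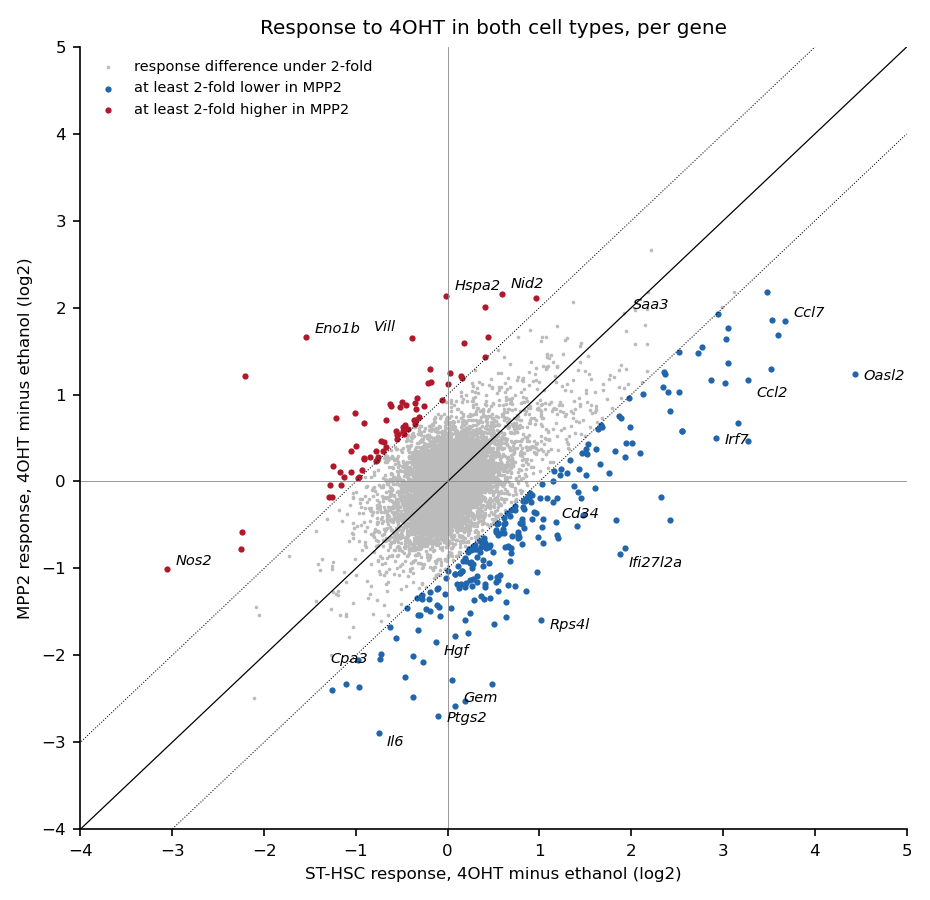
Response to 4OHT of each of the 11114 genes, in ST-HSC colonies on the x axis and in MPP2 colonies on the y axis, both as log2 differences between 4OHT and ethanol in a single pair of libraries. The solid line marks equal responses and the dotted lines a 2-fold response difference. The 238 blue genes spread toward higher ST-HSC and lower MPP2 values, and the 71 red genes lie on the other side.

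The 238 genes called lower were made up of several kinds. In 76, the gene was at least 2-fold lower with 4OHT in MPP2 colonies and within 2-fold in ST-HSC colonies, and all 76 moved down. In 55 it was at least 2-fold higher with 4OHT in ST-HSC colonies alone. In 24 both cell types passed 2-fold in the same direction, 22 up and 2 down, and the MPP2 median of the 24 was 1.28 against 2.91 in ST-HSC. In 82 neither passed 2-fold and the difference came from smaller movements, with medians of 0.62 in ST-HSC and -0.64 in MPP2. The last gene, Rps4l, passed in opposite directions.

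Many of the genes called lower stood apart between cell types in the ethanol cultures. In ethanol 157 of the 238 (66.0%) were at least 2-fold higher in MPP2 than in ST-HSC colonies and 0 were 2-fold lower, while 3.63% of uncalled genes were at least 2-fold higher. For 113 of the 238 the gap was past 2-fold in ethanol and within 2-fold under 4OHT. The counts of 157 and 113 draw on the same MPP2 and ST-HSC ethanol libraries as the response difference. An error in either library would enter the counts and the difference alike. The MPP2 ethanol library was the highest of the 4 for 142 of the 238, and the ST-HSC 4OHT library for 73.

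Antiviral interferon effectors had the lowest median response difference of the lists under the rule used here. Their median response was 1.75 in ST-HSC and 0.79 in MPP2 colonies, and the median response difference was -0.96. Of the 32 measured effectors, 15 were called lower in MPP2, beside 2.14% of all genes, and 0 higher, and 3 lay above 0. All 32 were above 0 in ST-HSC colonies and 29 in MPP2 colonies, so most went up in both cell types and by less in MPP2. The list has 36 genes in the table, 4 of which failed the rule on low levels, and others, such as Oasl2, Usp18, Mx1 and Isg15, passed it in a cell type through the 4OHT library alone, so the count over members is a description. With no filter at all the median over the 36 was -0.78, and with a mean of at least 5 it was -0.47 over 22. In that last setting chemokines (-0.86), eosinophil genes (-0.78) and mast cell genes (-0.71) were lower, and with no filter red cell genes were (-1.74).

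Oasl2, an antiviral relative of the OAS enzymes (chr5:114896936-114912234, GRCm38), went from 6 to 270 reads in ST-HSC colonies and from 39 to 91 in MPP2 colonies. Its response difference was -3.20, and the ratio of ratios 0.0558 (0.0188 to 0.14). MPP2 colonies thus stood higher than ST-HSC colonies in ethanol and lower under 4OHT. Usp18, which removes ISG15 and dampens interferon signalling, followed the same order with 13 and 230 reads against 41 and 132, a response difference of -1.92. Irf7, a transcription factor that amplifies interferon production, had 53 and 435 reads in ST-HSC and 192 and 247 in MPP2 colonies. Its response was 2.92 in ST-HSC and 0.50 in MPP2, and the ratio of ratios 0.169 (0.118 to 0.24).

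The order turned around for the list as a whole. In ethanol 23 of the 32 effectors were higher in MPP2 than in ST-HSC colonies, and under 4OHT 6 were. Over all 11114 genes, 5013 were higher in MPP2 colonies in ethanol and 5259 under 4OHT. The median gap of the effectors, MPP2 minus ST-HSC, was 0.51 in ethanol and -0.41 under 4OHT. These gaps use the same 4 libraries as the response difference, so they restate it and add no separate support. Oas2 had 11 and 136 reads in ST-HSC colonies and 49 and 104 in MPP2 colonies. Isg15, with 13.1% of its 31-base words shared with another gene, had 11 and 139 against 21 and 79, and Rsad2, the antiviral protein viperin, 16 and 166 against 57 and 212. Rsad2 was an exception to the turn, still higher in MPP2 colonies under 4OHT.

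The sensors and signalling genes had a median response difference of -0.02 over 29 members, with 3 called lower and 0 higher. The 3 were Irf7 and the DNA sensors Ifi204 (-2.49) and Mnda (-1.70), and both sensors are uncertain, since 34.6% and 78.9% of their 31-base words occur in another gene. Ifi204 also passed the rule in ST-HSC colonies through the 4OHT library alone. The receptor genes Ifnar1 and Ifnar2 were at -0.00 and 0.40, and Irf1, an early interferon factor, was at 0.78. Among effectors, Ifitm3 (-0.02, 20.5% shared), Samhd1 (0.07) and Ifit2 (0.05) lay closest to 0. The Schlafen family, interferon-induced genes of growth and antiviral control, had a median of -0.91 over 9 members, with 2 called lower. With a mean of at least 5 that median was -0.59 over 6, and with a constant of 2 it was -0.58. Without genes of shared sequence too few members were left for a median, so the 9 are not clearly separate readings. Slfn5 led it with 55 and 315 reads in ST-HSC and 107 and 174 in MPP2 colonies (-1.60), but 13.4% of its words are shared.

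**Figure D2:**
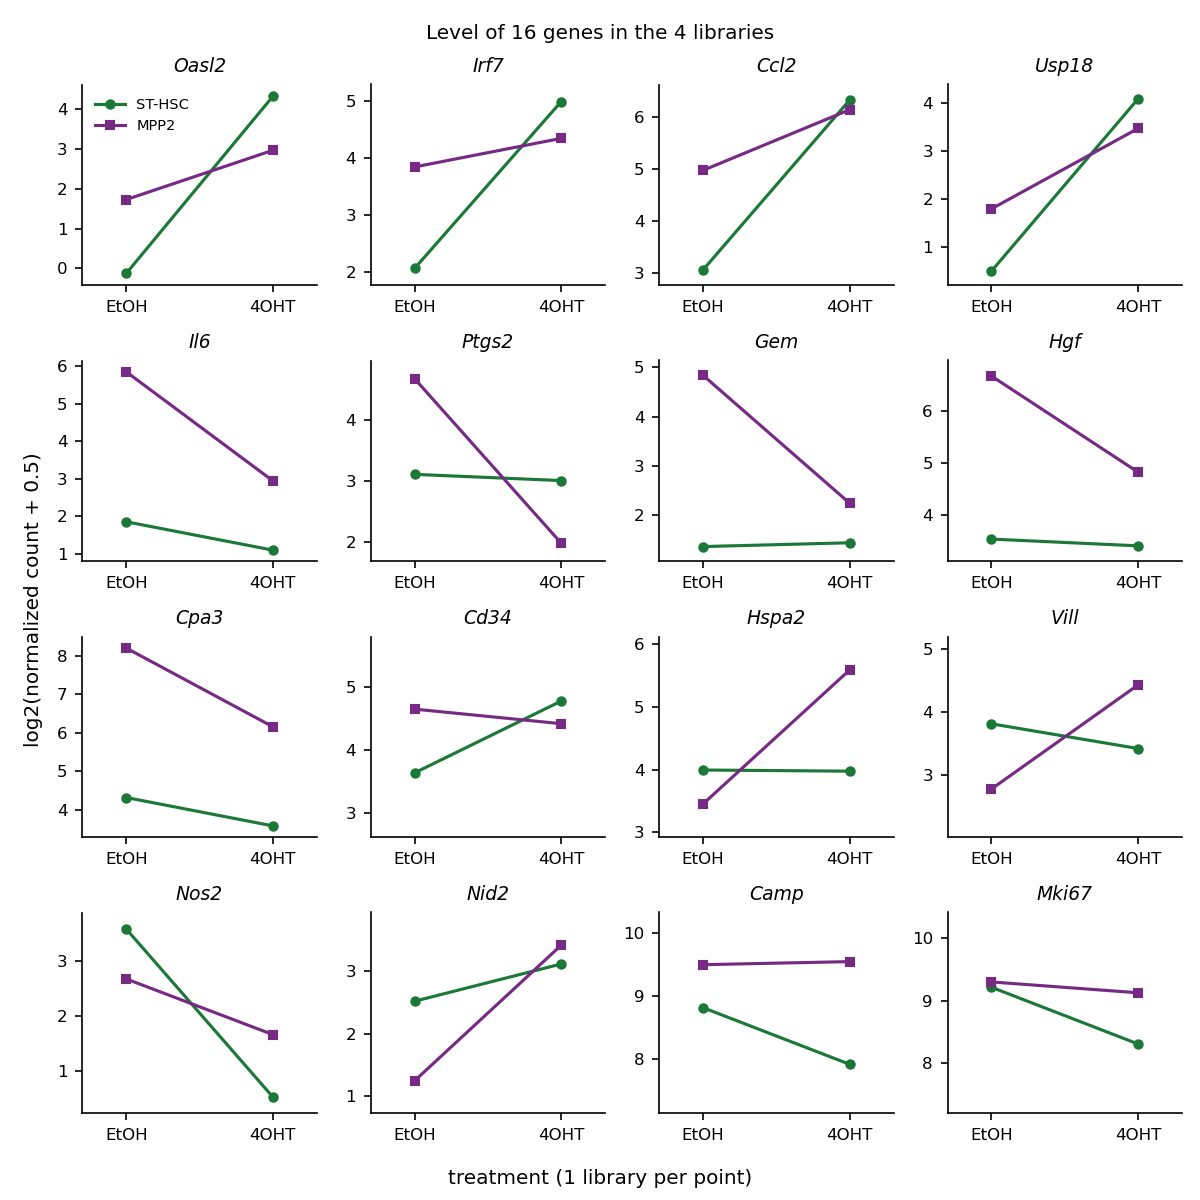
Level of 16 genes in the 4 libraries, as log2(normalized count + 0.5) on the y axis and treatment on the x axis, with circles for ST-HSC and squares for MPP2 and 1 library per point. The lines of Oasl2, Irf7, Ccl2 and Usp18 cross as ST-HSC goes from below to above MPP2, while Il6, Gem, Hgf and Cpa3 drop in MPP2 from a high ethanol level.

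Chemokines are secreted proteins that draw leukocytes. Over 19 measured chemokines and receptors the median response was 0.21 in ST-HSC and -0.19 in MPP2, and the median response difference -0.74. Of the 19, 8 were above 0 in both cell types, 4 below 0 in both, and 6 above in ST-HSC and below in MPP2. Called lower were 7, beside 2.14% of all genes, and 0 were called higher, beside 0.639%. Ccl2, which draws monocytes, had 113 and 1113 reads in ST-HSC colonies and 430 and 876 in MPP2 colonies, a ratio of ratios of 0.223 (0.176 to 0.28). Its neighbour Ccl7 had 9 and 193 against 35 and 129 (-1.83). Ccl7 passed the rule in ST-HSC colonies through the 4OHT library alone, so its call is a description.

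Other chemokines moved in opposite directions. Ccl4 had 441 and 875 reads in ST-HSC colonies and 1363 and 851 in MPP2 colonies, a response of 1.02 and -0.52. Ccl9 had 1399 and 2793 against 4322 and 2869. Ccr2, the receptor for CCL2 on inflammatory monocytes, had 495 and 744 reads against 292 and 153, so that the cell types stood further apart under 4OHT than in ethanol. Cxcl2, which draws neutrophils, was at 0.15 in ST-HSC and -1.17 in MPP2. Ccl22 (0.80) and Ccl17 (0.71) lay on the upper side of the list.

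Secreted cytokines and growth factors had 6 of 20 members called lower, beside 2.14% of all genes, and 0 higher. Their median was -0.42, or -0.69 over the 12 with a mean of at least 5, and -0.29 with a constant of 2. Il6, which encodes interleukin 6, a cytokine also supplied in the medium as protein, had 45 and 23 reads in ST-HSC colonies and 789 and 90 in MPP2 colonies. Both cell types were lower with 4OHT, by -0.75 and -2.90, and the ratio of ratios was 0.24 (0.135 to 0.437). Lif, a cytokine of the same family, had 81 and 55 reads against 646 and 117, and Osm, a further relative, 1554 and 1271 against 3197 and 1033. Hgf, hepatocyte growth factor, had 159 and 140 against 1405 and 346 (-1.72). In these 4 genes the ST-HSC colonies stood below the MPP2 colonies in ethanol and stayed within 2-fold, and the MPP2 colonies came down toward them. Tnf (-0.04) and Tgfb1 (0.06) lay near 0.

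Other large response differences had the same shape. Gem, a small GTPase that quiets calcium channels, had 30 and 31 reads in ST-HSC and 388 and 53 in MPP2 colonies, a ratio of ratios of 0.142 (0.0768 to 0.265). Ptgs2, cyclooxygenase 2, which makes prostaglandin precursors, had 117 and 105 against 348 and 43. Cdh17, a cadherin next to Gem on chromosome 4, had 12 and 19 against 235 and 37, and Inpp4b, a phosphoinositide phosphatase, 58 and 58 against 596 and 105. Cdh17 passed the rule in ST-HSC colonies through the 4OHT library alone. Egr1, an immediate early transcription factor, had 1054 and 814 against 2195 and 679 (-1.21), and Egr2 was at -1.52. Immediate early genes as a list had a median of -0.10, or -0.21 with the trend with GC content removed. Of the 28, 4 were called lower, beside 2.14% of all genes.

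Mast cell and basophil genes were lower with 4OHT in both cell types and further down in MPP2 colonies. Their median response was -0.36 in ST-HSC and -0.99 in MPP2, and the median response difference -0.50. Of 30 measured members, 8 were called lower, beside 2.14% of all genes, and 0 higher, and 5 lay above 0. Cpa3, mast cell carboxypeptidase, had 280 and 160 reads in ST-HSC colonies and 4065 and 884 in MPP2 colonies (-1.31). Hdc, which forms histamine, had 485 and 384 against 4809 and 1696, and Il1rl1, the IL-33 receptor, 162 and 76 against 2222 and 478.

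Single mast cell genes ranged widely. Adora3, an adenosine receptor with 23.9% shared sequence, and Cd200r3, a receptor of basophils, had the widest gaps at -1.86 and -1.79. The transcription factor genes Gata2 (-0.71) and Gata1 (-0.08) differed less, and Gata1 had 30 and 11 reads in ST-HSC and 292 and 121 in MPP2 colonies. Going the other way were Prss34, a basophil protease (0.86), and Fcer1a, the IgE-binding chain of its receptor (0.47). Prss34 had 215 and 58 reads in ST-HSC and 2406 and 1187 in MPP2 colonies. The summed level of the whole list was 1579 and 1427 normalized counts in ST-HSC and 4469 and 2681 in MPP2 colonies. Its members Tpsb2 and Mcpt4 were at 0 reads in both ST-HSC libraries.

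These 3 mast cell promoters are shown for genes on either side of 0, with matches to the GATA site AGATAA on either strand in capitals. They lie at chr3:20242182-20242267 (minus strand), chr16:44943599-44943677 and chr17:25298323-25298393 (plus strand) on GRCm38.p6 and are taken from RefSeq windows.
Cpa3: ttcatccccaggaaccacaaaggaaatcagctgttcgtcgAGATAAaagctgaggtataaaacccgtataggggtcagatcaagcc
Cd200r3: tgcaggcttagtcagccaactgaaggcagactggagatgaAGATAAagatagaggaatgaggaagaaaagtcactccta
Prss34: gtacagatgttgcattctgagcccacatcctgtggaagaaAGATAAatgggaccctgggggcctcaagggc

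The AGATAA letters stood in 9 of the 27 mast cell and basophil genes with a window (33.3%), and in 7.52% of all genes with one. These windows also hold the 50 bases after the start. Among the 9, the genes Adora3 and Cd200r4 had no match in the 250 bases before it. Among genes called lower in MPP2, a set that includes mast cell genes, the letters stood in 19 of 160 (11.875%). Prss34 held the letters 31 bases before its start and Cpa3 46 bases before, although their response differences had opposite signs. Only the motif named for a set was marked in its sequences.

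Markers of other lineages were also unequal. Eosinophil genes had 3 of 8 members called lower and a median of -0.43, or -0.09 without genes of shared sequence, with Prg2, major basic protein, at 143 and 155 reads against 1354 and 595. Red cell genes could hardly be compared, since 9 of the 31 in the table passed the rule, and their median was -0.28 against -1.74 over all 31. Those outside it had their reads in MPP2 ethanol, as Hba-a1 with 3 and 2 reads in ST-HSC and 637 and 31 in MPP2 colonies, and Hbb-b1 with 0 and 0 against 571 and 16. Of the 9, Car2, carbonic anhydrase 2, was called lower with 123 and 167 reads against 495 and 172. The summed level of the red cell list was 1045 and 849 normalized counts in ST-HSC and 1230 and 839 in MPP2 colonies. Megakaryocyte genes had 2 of 18 called lower and a median of -0.06. The part of these lineage markers in the chemokine, cytokine and interferon values was not tested.

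Among 20 stem and progenitor genes, 7 were above 0 in ST-HSC and below 0 in MPP2 colonies, 6 above in both, 4 below in both and 3 the reverse. The median response was 0.24 in ST-HSC and -0.20 in MPP2, and 5 were called lower, beside 2.14% of all genes, and 0 higher. Cd34, a progenitor surface protein, had 172 and 376 reads in ST-HSC and 342 and 261 in MPP2 colonies, a ratio of ratios of 0.376 (0.293 to 0.482). Meis1, the HOX partner, had 21 and 55 against 112 and 71 (-1.65), with 17.6% shared sequence. Rgs1, a damper of chemokine receptors, had 172 and 137 against 303 and 60.

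Targets of MLL fusions in general had a median of -0.24, with 2 of 23 called lower, beside 2.14% of all genes. Hoxa9, the best known of them, had 13 and 49 reads in ST-HSC and 5 and 14 in MPP2 colonies. Both went up, by 1.52 and 0.92. Hoxa9 passed the rule in both cell types through the 4OHT library alone. A rise was thus built into its membership, and its values are a description. Erg (0.57), Hoxb4 (0.65) and Hlf (0.75) were on the upper side of the stem list. Subunits of the MLL, elongation and Polycomb complexes had a median of 0.08, or -0.00 when scaled by library totals. That scaling moved the median of all genes from -0.01 to -0.10. Called in either direction were 0 of 39 members, close to the 2.14% lower and 0.639% higher over all genes.

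**Figure D3:**
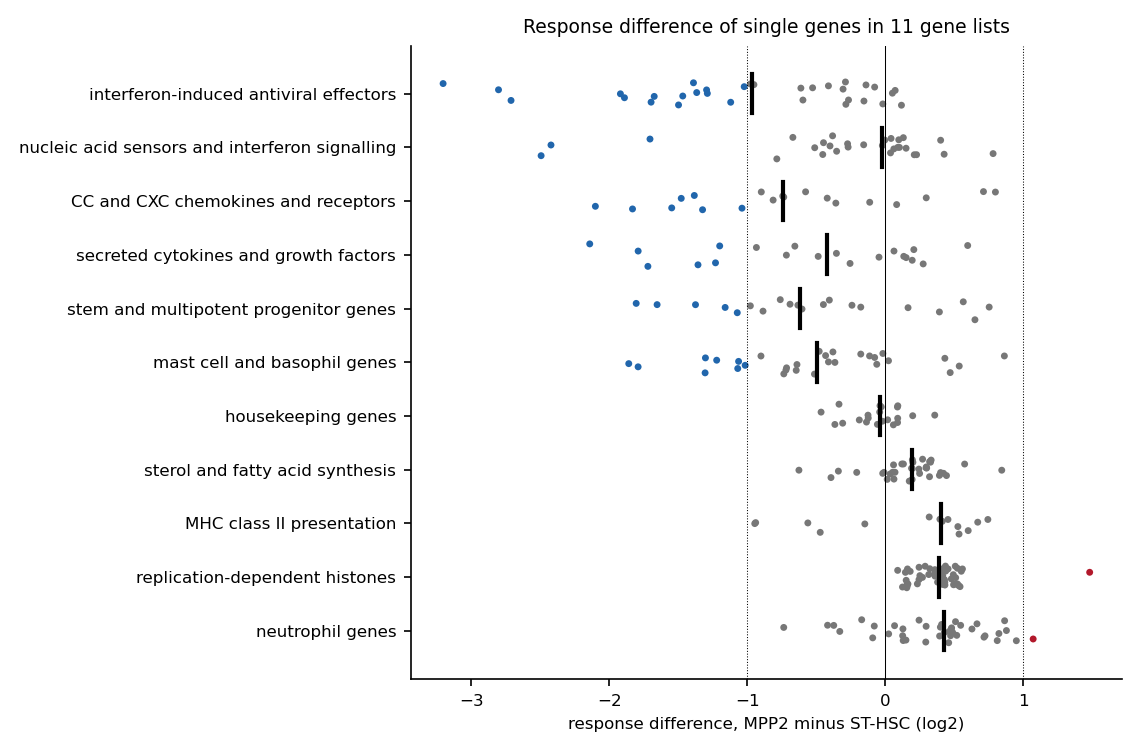
Response difference, MPP2 minus ST-HSC on the log2 scale, of the single genes of 11 lists, with black bars for list medians, dotted lines at 2-fold and blue or red points for called genes. The interferon effectors reach down to -3.20 while the 50 histone genes all lie to the right of 0.

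Monocyte and macrophage genes had 5 of 30 members called lower, beside 2.14% of all genes. Their median was -0.10, or -0.23 over 23 without genes of shared sequence, and -0.08 over 35 with no filter. Siglec1, a sialic acid receptor of macrophages, had 5 and 38 reads in ST-HSC colonies and 54 and 26 in MPP2 colonies (-2.70). Cd36, a receptor for oxidized lipid, had 11 and 96 against 71 and 99, and Msr1, the class A scavenger receptor, 172 and 420 against 323 and 311. Siglec1 and Cd36 passed the rule in ST-HSC colonies through the 4OHT library alone, so their values are a description. Mrc1 (0.13), Csf1r (0.29, with 14.9% shared sequence) and Adgre1 (0.17) lay slightly above 0. Ctsk and Atp6v0d2, a protease and a proton pump subunit of osteoclasts and macrophages, were at -1.68 and -1.65.

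Neutrophil genes formed the list with the highest median. The median response was -0.24 in ST-HSC and 0.16 in MPP2 colonies, the median response difference was 0.43, and 32 of 39 members lay above 0. A single one, Mmp9 (gelatinase B), passed 2-fold with 42 and 27 reads against 323 and 439. Camp, the antimicrobial peptide cathelicidin, had 6465 and 3345 reads in ST-HSC and 10020 and 9323 in MPP2 colonies (0.95). Ngp, a granule protein, had 83960 and 49830 against 166925 and 146044, and S100a9, a calcium-binding alarm protein, 127603 and 87877 against 177412 and 152776. In these 3 the ST-HSC response was -0.90, -0.71 and -0.49, in that order, and the MPP2 response 0.05, -0.04 and -0.06.

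Other granule genes had the same sign with both cell types moving. Ltf, lactoferrin, had 26684 and 19925 reads against 60356 and 68821, and Lcn2, which binds bacterial iron carriers, 12268 and 10329 against 22000 and 26628. Cxcr2, the receptor that pulls neutrophils from the marrow, was an exception at -0.74 (12.1% shared). The summed level of the list was 39255 and 30501 normalized counts in ST-HSC and 60622 and 61987 in MPP2 colonies. Early granule genes such as Elane (0.51) and Mpo (0.40, 12.1% shared) had a median of 0.21, with 13 of 16 above 0 and 0 called, and 0.12 with 10 above 0 when scaled by library totals.

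Replication-dependent histone genes, which are read during DNA synthesis, all lay above 0, 50 of 50, with a median of 0.39. The median response was -0.15 in ST-HSC and 0.22 in MPP2 colonies. In ethanol 2 of the 50 stood higher in MPP2 than in ST-HSC colonies, and under 4OHT 42 did, beside 5013 and 5259 of all 11114 genes. These counts restate the response difference, since they use the same 4 libraries. Their summed level was 29782 and 26777 normalized counts in ST-HSC and 25874 and 29955 in MPP2 colonies. H4 genes of the large cluster had a median of 0.16, below those of H1 (0.36), H2B (0.42), H3 (0.43) and H2A (0.46). Since 46 of the 50 share over 10% of their sequence with another gene, these are better read as sums over copies.

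A trend with base composition lay beneath these values. The median response difference went from -0.17 in the quintile of genes with the lowest GC content to 0.15 in the highest, and the share above 0 from 24.2% to 67.7%. Between the same quintiles the median response went from -0.09 to 0.03 in ST-HSC and from -0.27 to 0.17 in MPP2 colonies. The trend was thus wider in the MPP2 pair of libraries, and its source was not tested. Histone genes had a median GC content of 58.3%. The 3396 other genes in the middle GC range of the histones had a median of 0.12, and 65.5% of them lay above 0. The 199 of these with transcripts of at most 1000 bases, nearer to the histone median of 536.5, had a median of -0.06 and 39.2% above 0. With the trend removed in 20 bins the histone median was 0.27 and 45 of 50 lay above 0, and the neutrophil median was 0.43.

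**Figure D4:**
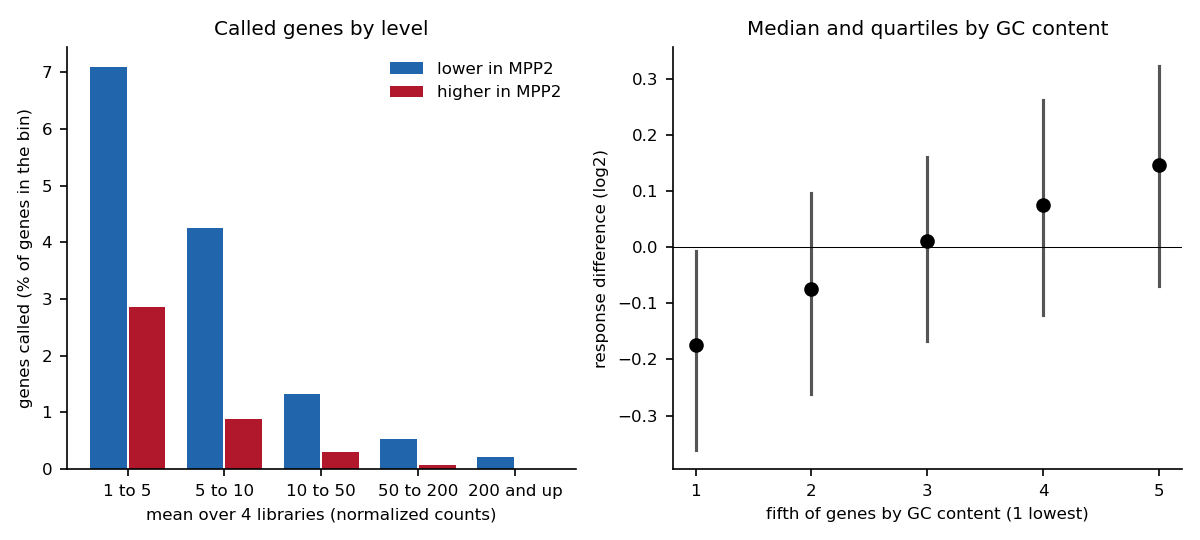
Left, the percentage of genes called lower (blue) and higher (red) in MPP2, by mean level in normalized counts. Right, the median (point) and quartiles (line) of the response difference in quintiles of genes by GC content, from -0.17 in the lowest to 0.15 in the highest.

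Genes of antigen presentation by MHC class II had a higher median response in MPP2 colonies, although 0 of the 14 were called and 5 lay below 0. The median response was 0.52 in ST-HSC and 0.85 in MPP2. Cd74, the invariant chain, had 1701 and 2461 reads in ST-HSC and 686 and 1475 in MPP2 colonies (0.67), and H2-Aa, an alpha chain, 430 and 615 against 168 and 329. Ciita, the master activator of these genes, had 68 and 81 against 12 and 25. It passed the rule in MPP2 colonies through the 4OHT library alone, so its values are a description. Ctss, the protease that trims the invariant chain, was the lowest at -0.95.

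Sterol and fatty acid synthesis had a median of 0.20 with 30 of 36 members above 0 and 0 called. Scaled by library totals, the median was 0.11 and 24 lay above 0. Both cell types were lower with 4OHT, by a median of -0.46 in ST-HSC and -0.25 in MPP2. Mvd, an enzyme of the mevalonate pathway, had 2674 and 1712 reads against 1860 and 1652 (0.58). Mki67, a protein of cycling cells, had 8531 and 4411 reads in ST-HSC and 8721 and 6958 in MPP2 colonies (0.73), while the mitosis list had a median of 0.07, or -0.01 when scaled by library totals. Ribosomal protein genes went slightly the other way, with a median of -0.11 and 10 of 57 above 0, or -0.20 and 0 when scaled by library totals. The median of all genes moved from -0.01 to -0.10 under that scaling. Npm1, a nucleolar chaperone of ribosome assembly, had 10520 and 10441 against 7238 and 4283 (-0.64), with 29.4% shared sequence. Housekeeping genes had a median of -0.04, from -0.46 to 0.36.

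**Figure D5:**
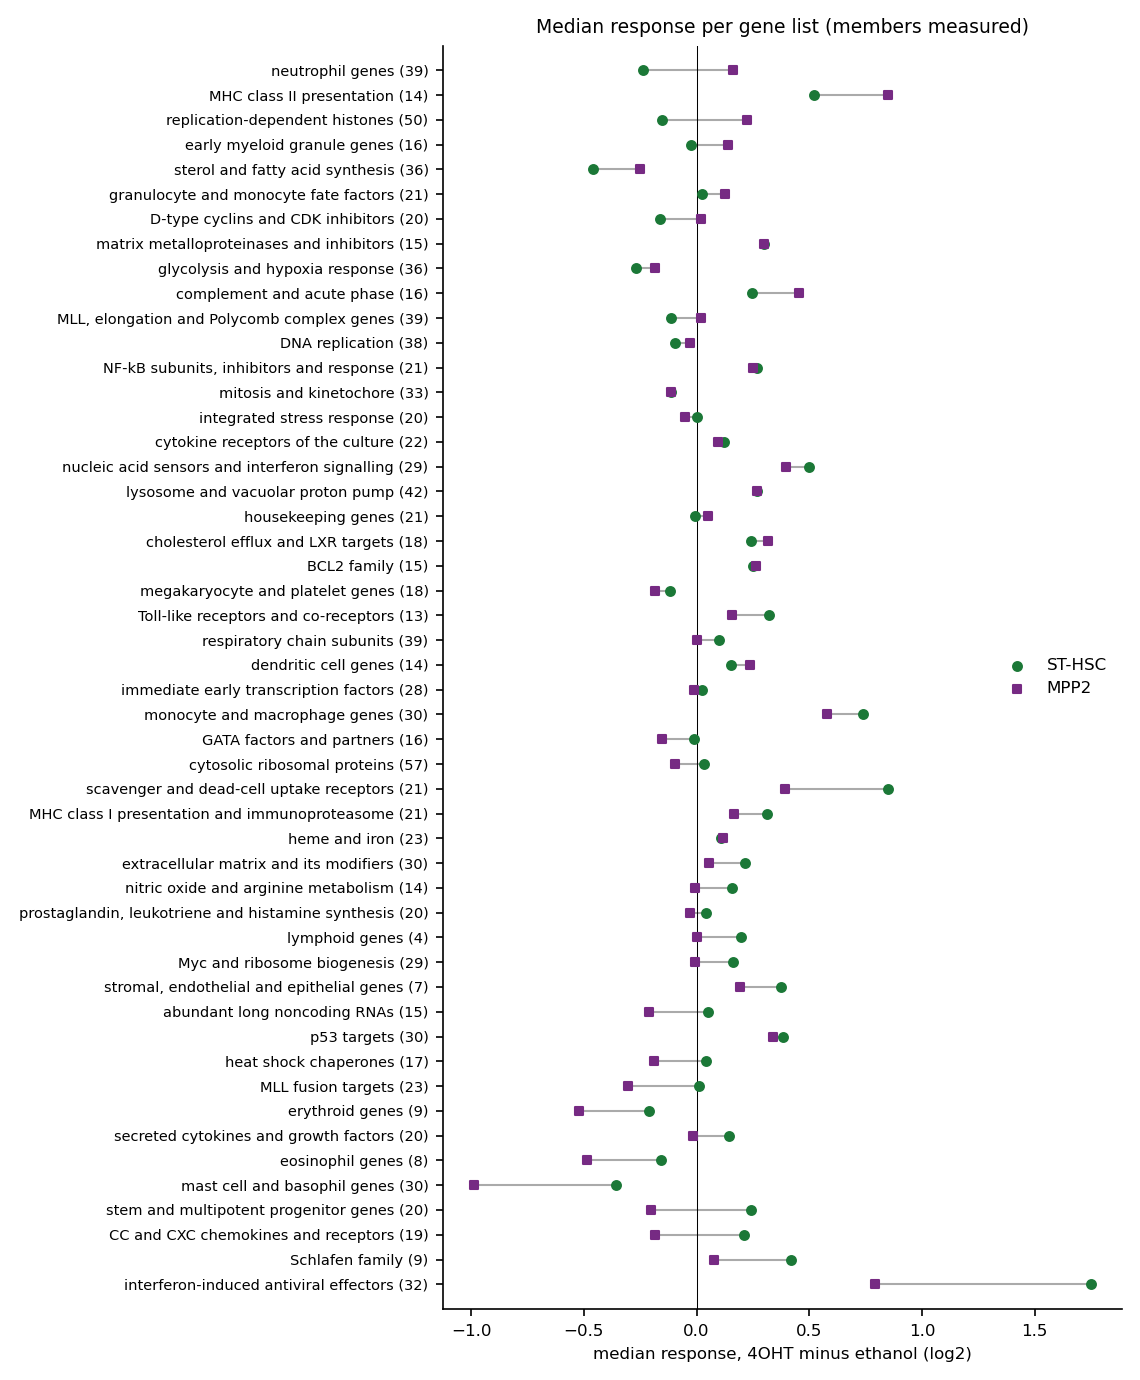
Median response to 4OHT per gene list, as a log2 difference on the x axis, with circles for ST-HSC and squares for MPP2 colonies and the number of measured genes in brackets, ordered by the median response difference. Interferon effectors (1.75 and 0.79) lie at the bottom and neutrophil genes (-0.24 and 0.16) at the top.

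The 71 genes called higher in MPP2 made up 0.639% of all genes. No list held more than 1 of them, and at that share lists of this size would hold few. In 15 the MPP2 colonies alone were at least 2-fold higher with 4OHT, in 13 the ST-HSC colonies alone were at least 2-fold lower, and in 40 neither passed 2-fold. Hspa2, a chaperone of the HSP70 family, had 222 and 212 reads in ST-HSC and 145 and 593 in MPP2 colonies, a ratio of ratios of 4.61 (3.52 to 6.04). Vill, a relative of the actin binder villin, had 195 and 142 against 88 and 263 (4.42, 3.15 to 6.19). Nid2, a basement membrane protein, had 75 and 113 against 26 and 126 (1.57), and Flt1, a VEGF receptor, 280 and 236 against 96 and 221 (1.49). In these 4 the MPP2 colonies began below the ST-HSC colonies in ethanol and ended level or above.

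Nos2, inducible nitric oxide synthase, was lower with 4OHT in both cell types and less so in MPP2. It had 164 and 13 reads in ST-HSC colonies and 81 and 33 in MPP2 colonies, a ratio of ratios of 5.53 (2.65 to 12). Nos2 passed the rule in ST-HSC colonies through the ethanol library alone, so its call is a description. Eno1b had the widest difference of the well-read genes at 3.21, with 1853 and 611 reads against 1630 and 4658, a response of -1.54 in ST-HSC and 1.66 in MPP2. It is listed as uncertain, since 89.2% of its 31-base words occur in another gene. The same holds for Gvin1 (99.7%) and Hist2h3c1 (100%). Over all called genes with a value, 65 of 304 shared over 10%.

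Some genes responded by the same amount. Saa3, an acute-phase protein, had 230 and 865 reads in ST-HSC and 181 and 642 in MPP2 colonies, responses of 1.93 and 1.94. Relb, an NF-kB subunit, was at 1.05 in both, with 81, 170, 179 and 340 reads. Cmklr1, the receptor for chemerin, was at 1.44 and 1.37, and Slc22a3, an organic cation transporter, at -1.24 and -1.27. Counting intervals for these ratios of ratios ran from 0.81 to 1.27 for Saa3 and from 0.696 to 1.36 for Relb. Targets of p53 had a median of -0.20, with 21 of 30 below 0 and 2 called lower, beside 2.14% of all genes. Without genes of shared sequence that median was -0.31 over 25, and with a constant of 2 it was -0.15.

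Of 235 genes called lower with a position, 34 lay in 14 groups within 100 kb of each other, with no background share computed for other genes. The Oas2, Oas3, Oas1g and Oas1a genes formed one on chromosome 5, Ifit3, Ifit1bl1 and Ifit1 one on chromosome 19, and Pyhin1, Ifi204, Mndal and Mnda one on chromosome 1. Ccl2 with Ccl7 and Ccl9 with Ccl4 lay on chromosome 11, as did Lif with Osm. Several of these are families of related copies, and Oas1a shares 68.8% of its words with another gene.

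The share of genes called depended on level. Of genes with a mean under 5, 7.09% were called lower and 2.86% higher, while at 200 and above 0.214% were called lower and 0% higher. Just inside the rule, Armcx1, Creg2 and Fam83f reached 1.01 in the weaker cell type, and just outside, Asic1, Faah and Fam169a reached 0.974. Of the 309 called genes, 136 reached 10 normalized counts in a library, 116 lower and 20 higher.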

How the data were processed

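Colony RNA was prepared using TRI Reagent LS, then RNeasy, rRNA was depleted and directional libraries were built with MGIEasy kits from 200 ng, per the labels' protocols. Trimmomatic 0.36, Bowtie2, RSEM, edgeR and mm10 are named per the submitters' processing notes; for their order, the annotation and the strand setting, the entry is not given in the sources used here. The authors deposited 1 table of normalized counts, a signal per gene symbol. All 57292 values were whole multiples of 1 read's value in their column (tolerance 1e-06), so reads were recovered.

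The response difference was computed on log2(value + 0.5); the constant shrinks low genes. Ratios of ratios use recovered reads with exact conditional 95% intervals, which cover counting error only; no molecular barcodes are known. Gene positions, GC content (99.2% of members) and shared 31-base words come from GENCODE M21 on GRCm38, promoters from RefSeq. Members, lists (51, 50 with a member) and thresholds were chosen with earlier results of these data known. The naming rule took genes that reach 10 normalized counts in a library, without predicted, clone-named and small RNA genes. It took the 15 highest and 15 lowest differences, 4 per class and direction, genes opposite in direction, the 6 most equal, and 3 per list by change and 2 by level; further list members and neighbours, genes at the edge of the gene filter, and genes under 10 (such as Rps4l, Hist2h2aa2, Siglec1, Cd36 and Meis1) were named after their values were seen. Shared sequence over 10% is marked uncertain. Alternatives covered constant, filter, scaling, GC and threshold; removal of X and Y genes and of genes with shared sequence was added after the data were seen. The procedure was tested on simulated data. Software: Python 3.11.15, numpy 2.4.6, pandas 2.3.3, matplotlib 3.10.9, R 4.3.3. An item withheld from the text is not reported here.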

Additional observations from a re-analysis of the deposited data

Results flagged for a closer look

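The genes Eno1b, Hist2h2aa2 and Rps4l were at least 2-fold in opposite directions in the cell types, and for each the difference was not tested. Eno1b was lower in ST-HSC and higher in MPP2 colonies, with a response difference of 3.21 on the log2 scale. Hist2h2aa2, a histone copy with 26, 0, 9 and 27 reads whose sequence is fully shared with another gene, had 3.42. Rps4l, a pseudogene with 53, 111, 51 and 11 reads and 26.0% shared sequence, had -2.61. Some lists had medians on opposite sides of 0 in the cell types, also not tested as differences. These were chemokines and receptors (-0.74), stem and multipotent progenitor genes (-0.62), neutrophil genes (0.43) and replication-dependent histones (0.39).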

How the results depend on the processing

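No paired analysis was possible because each group had 1 library, so no replicate could be left out either. Against 71 genes called higher and 238 lower, a constant of 0.1 gave 127 higher, a constant of 2 gave 17 and 129, a filter at 5 gave 23 and 105, no filter 177 and 454, and 4-fold 5 and 24. Genes past 2-fold in exactly 1 cell type were 51.5% of calls, and 61.6% with a constant of 2. Scaling by library totals gave 52 higher and 300 lower, and median-of-ratios scaling 68 and 245. With library totals the median of all genes moved from -0.01 to -0.10, so shifts of list medians in that setting are not particular to a list. With the GC trend removed, 55 of the 71 and 206 of the 238 were still called. List medians near 0, such as those of mitosis and of the MLL complexes, crossed 0 in some settings. The interferon effector median ran from -1.04 to -0.47, that of chemokines from -0.86 to -0.56, of stem genes from -0.69 to -0.43, of mast cell genes from -0.71 to -0.38 and of neutrophil genes from 0.34 to 0.48. Of 69 named genes called, 11 fell below 2-fold in some setting, among them Jup, Mmp9, Nrg2, Phospho1, Ikzf2, Plk2, Msr1, Mmp12 and Cfb. Depth limits genes with a mean under 5 most.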
